A study of Mus musculus with 36 samples.

Results

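Away from promoters, the neural progenitors held 1492 sites where the nucleosome remodeling and deacetylase (NuRD) complex was called and where no MBD3 or CHD4 list of embryonic stem cells had an overlapping peak. Mouse ChIP-seq, which sequences the DNA precipitated with a protein, had been run on MBD3 and CHD4, both subunits of NuRD, in wild-type R1 embryonic stem cells (ESCs) grown in serum, LIF and 2i, and in wild-type neural progenitor cells (NPCs) derived from R1 ESCs and kept in NPC medium. The series holds 36 samples, and the peak lists of 9 of them were used: MBD3 and CHD4 in ESCs with 2 replicates each, MBD3 and CHD4 in NPCs with 1 list each, SIN3A in wild-type ESCs with and without spike-in, and GFP-tagged ZFP296 in ESCs. The labels give the GFP-ZFP296 cells as R1 with a ZFP296 BAC, whereas the study's methods describe a cDNA construct in KH2 ESCs. The MBD3, CHD4 and SIN3A samples are labelled R1, a single ESC line, and the NPCs were made from it in culture. The second CHD4 list of ESCs is labelled wild-type, but its peaks are named after a Zfp219 BAC line.

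NuRD joins a histone deacetylase, HDAC1 or HDAC2, to the ATP-driven nucleosome remodeler CHD4, and MBD3 links parts of the complex. The complex is found at active enhancers and promoters as well as at repressed genes, and it does not read DNA sequence the way a transcription factor does. AP-1 is a family of dimers of JUN, FOS and related leucine zipper proteins that bind the 7-base element TGACTCA, are induced by growth factor signalling through ERK, and are known for opening enhancers in many cell types.

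The sites were chosen by the peak calls themselves. Of 104813 peaks in all 9 lists, 2304 were NPC MBD3 peaks, and 1957 of these overlapped an NPC CHD4 peak by at least 1 bp. Of the 1957, 318 had their midpoint within 1 kb of the transcription start site (TSS) of a protein-coding transcript, which left 1639 distal sites. An ESC MBD3 or CHD4 peak overlapped 147 of these, and the remaining 1492 are the distal NPC-only NuRD sites. They make up 64.8% of the NPC MBD3 peaks and 91.0% of the distal NPC sites with both subunits. Of the 147 sites removed, 132 overlapped ESC CHD4 replicate 2, the longest list with 29974 peaks, and for 61 it was the sole list with an overlapping peak. An ESC MBD3 peak overlapped 67 of the 147, and peaks of all 4 ESC lists overlapped 21. NPC-only therefore means that no peak was called in ESCs, not that the proteins were absent there. No list gives read counts, so depth at the sites is unknown, and none gives expression, so marker levels of the labelled cell types were not checked.

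Just outside the 1 kb limit, the 5 nearest sites without an ESC peak lay 903 to 983 bp from the TSSs of Fads3, Hic1, Cftr, S100a4 and Furin and had MBD3 values of 6.79 to 9.73. Just inside it, the 5 nearest lay 1001 to 1112 bp from those of Gpr149, Ap2a2, Lect2, Schip1 and Igf1r, with values of 5.89 to 16.5. The value is the peak caller's score on a −log10 scale, of a p or a q that the sources used here do not tell apart.

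The sequences of 7 sites show what the DNA at the strongest members looked like. Shown are the central 200 bp of the 5 sites with the highest NPC MBD3 value among those that held TGACTCA, then of the 2 highest that did not. The sequences come from the mm9 (NCBIM37) reference, plus strand, and capitals mark TGACTCA or its reverse complement TGAGTCA. In the last sequence capitals mark instead TGACTCG, which differs from the element by 1 base. Other strings that differ from it by 1 base are not marked.
Intron of Gxylt2, chr6:100750621-100750820: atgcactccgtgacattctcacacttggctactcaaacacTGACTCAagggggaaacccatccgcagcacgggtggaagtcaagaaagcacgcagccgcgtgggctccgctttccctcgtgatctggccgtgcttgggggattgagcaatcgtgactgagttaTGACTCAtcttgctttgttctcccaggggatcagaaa
Upstream of Oaf, chr9:43070095-43070294: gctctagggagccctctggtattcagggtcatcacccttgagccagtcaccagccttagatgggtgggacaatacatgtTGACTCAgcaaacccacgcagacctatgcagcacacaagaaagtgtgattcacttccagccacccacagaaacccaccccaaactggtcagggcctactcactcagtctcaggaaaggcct
Upstream of Nfat5, chr8:109779099-109779298: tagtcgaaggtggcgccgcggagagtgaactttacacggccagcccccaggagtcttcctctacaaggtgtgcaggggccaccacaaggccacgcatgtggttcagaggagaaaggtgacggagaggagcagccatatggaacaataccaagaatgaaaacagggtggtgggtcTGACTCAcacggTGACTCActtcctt
Intron of Ninj2, chr6:120095564-120095763: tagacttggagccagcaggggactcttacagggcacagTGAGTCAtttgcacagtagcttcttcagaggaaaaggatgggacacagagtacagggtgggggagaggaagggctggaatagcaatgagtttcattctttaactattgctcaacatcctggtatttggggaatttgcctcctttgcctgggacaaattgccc
Upstream of Nr2f1, chr13:78342832-78343031: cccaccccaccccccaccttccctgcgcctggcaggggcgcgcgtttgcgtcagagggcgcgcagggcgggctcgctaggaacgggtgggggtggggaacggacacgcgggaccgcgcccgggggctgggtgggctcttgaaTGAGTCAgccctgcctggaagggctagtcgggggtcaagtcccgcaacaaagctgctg
Upstream of Eps8l3, no TGACTCA, chr3:107632675-107632874: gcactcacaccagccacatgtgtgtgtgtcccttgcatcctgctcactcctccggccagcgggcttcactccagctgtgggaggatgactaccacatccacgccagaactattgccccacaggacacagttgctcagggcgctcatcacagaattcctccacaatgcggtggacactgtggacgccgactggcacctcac
Upstream of Sirt4, no TGACTCA, chr5:115940025-115940224: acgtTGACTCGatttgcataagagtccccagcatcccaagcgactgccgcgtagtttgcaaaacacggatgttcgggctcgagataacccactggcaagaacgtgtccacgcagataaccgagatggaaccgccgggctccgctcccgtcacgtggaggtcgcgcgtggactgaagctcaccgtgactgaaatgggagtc

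The highest member of all had an MBD3 value of 52.3 and a CHD4 value of 29.5. It spanned chr6:100750563-100750879, in an intron of Gxylt2, which encodes a xylosyltransferase that modifies EGF repeats of Notch receptors. Its nearest protein-coding TSS was that of Ppp4r2, a regulatory subunit of a protein phosphatase, 32.9 kb away, and its 2 AP-1 elements lay 57 bp to the left (-57) and 66 bp to the right of the midpoint on the plus strand. The site near Nfat5, the transcription factor of the response to osmotic stress, had an MBD3 value of 32.2, lay between genes 38.2 kb upstream of the TSS (chr8:109778999-109779398), and held 2 elements 77 and 89 bp from its midpoint. Upstream of Oaf, a site with a value of 32.2 held 1 element 18 bp from the midpoint (-18), 22.3 kb from the TSS (chr9:43070038-43070351).

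Among the other 5 of the 8 highest members, the intronic Ninj2 site (chr6:120095492-120095835, MBD3 value 30.02) held 1 element. Ninj2 encodes an adhesion protein induced in Schwann cells after nerve injury. The Nr2f1 site (chr13:78342773-78343091, value 29.9), 3.91 kb upstream of a gene for a nuclear receptor that patterns the cortex, was 72% GC and held 18 CpG and 1 AP-1 element. Mtap6 encodes a protein that stabilizes microtubules in neurons, and the site in its intron (chr7:106453453-106453864, value 28.7) held 2 elements. TGACTCA was absent from the central 200 bp of the sites near Eps8l3 (chr3:107632597-107632953, value 34.9) and near Sirt4 (chr5:115939969-115940281, value 29.7), a mitochondrial sirtuin gene. The Sirt4 window did hold the variant TGACTCG, near its left end and far from the midpoint, and it carried 20 CpG. TGACTGA, which also differs from the element by 1 base, lay near its right end.

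Across the 1492 sites the MBD3 value ran from 3.02 to 52.3 with a median of 8.72, close to the 8.62 over all NPC MBD3 peaks. The CHD4 value of the overlapping peak ran from 3.20 to 67.7 with a median of 13.5, against 8.76 at the 13859 distal CHD4 peaks that overlapped neither an NPC MBD3 peak nor any ESC peak of either subunit (CHD4-only sites). The CHD4 peaks of the members were also wider, 327 against 200 bp at the median. Of the members, 57.0% lay in group 4, the highest of 4 equal groups, of all NPC CHD4 peaks by value, against 21.5% of the CHD4-only sites. These differences follow from peak calls that the choice of sites used, and they are given without a test. Within the members, both values ran only loosely together over sites (Spearman's rank correlation 0.234, Pearson's r of the log2 values 0.256, n = 1492 sites of the same pair of libraries). The midpoints of both peaks lay a median of 39 bp apart and within 50 bp in 60.7%.

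**Figure D1:**
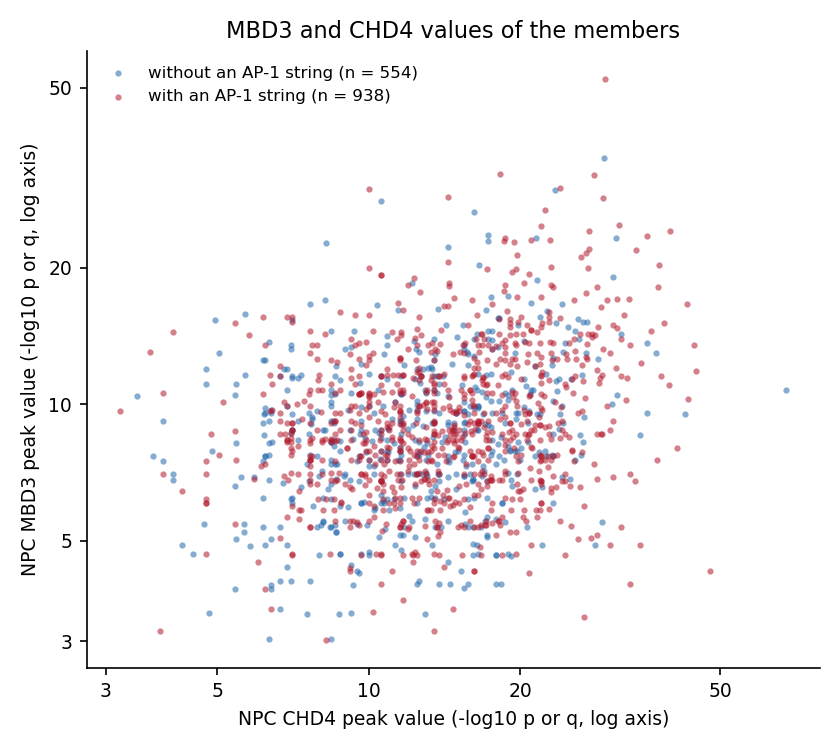
Value of the NPC CHD4 peak (horizontal, −log10 p or q, log axis) against that of the NPC MBD3 peak (vertical, same scale) for the 1492 distal NPC-only NuRD sites, 1 point a site, with red for the 938 that hold TGACTCA in 200 bp and blue for the 554 that do not. Both colours spread over the whole cloud, and the highest MBD3 value, 52.3, belongs to a site with the element.

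The AP-1 element was the sequence feature most of these sites had in common. TGACTCA, searched on both strands, lay in the 200 bp around the midpoint of 938 of 1492 sites, or 62.9% (95% Clopper-Pearson interval 60.4 to 65.3%). It was found in 50.2% of the CHD4-only sites, in 13.2% of the 318 NPC promoter sites with both subunits, and in 2.79% of the 1076 distal NuRD sites of ESCs that had no NPC peak (ESC-only sites). The promoter sites were kept with or without an ESC peak, so they differ from the members in both position and choice by ESC peaks. At the 147 distal NPC sites left out for an ESC peak the share was 36.7%. The ESC-only sites were ESC MBD3 peaks called in both replicates, with CHD4 in both. Of all 12778424 windows of 200 bp in the genome, 3.11% held the element. The share at the ESC-only sites thus lay near that of the genome.

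By two-sided Fisher's exact tests, whose p-values were adjusted by Benjamini-Hochberg over 48 tests, the members held TGACTCA more often than the CHD4-only sites (odds ratio 1.68, 95% interval 1.5 to 1.88, adjusted exact p = 1.29e-19), the promoter sites (11.1, 7.86 to 16.03, adjusted exact p = 3.41e-61) and the ESC-only sites (58.9, 40.3 to 89.1, adjusted exact p = 4.96e-252). Sites are not replicates and each NPC protein had 1 library, so intervals and p-values cover the counting of sites only. A scrambled string of the same base content, TCACTGA, was found at 6.84% of members and 6.17% of CHD4-only sites (odds ratio 1.12, 0.893 to 1.38, adjusted exact p = 0.414), and at 3.62% of ESC-only sites (1.95, 1.32 to 2.93, adjusted exact p = 0.000943). TCACTGA can overlap TGACTCA, and with AP-1 elements masked it remained in 5.22% of members with the element and 4.15% of those without. The masking acted on members with the element alone, and it also took out a few strings that cannot share a base with it.

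**Figure D2:**
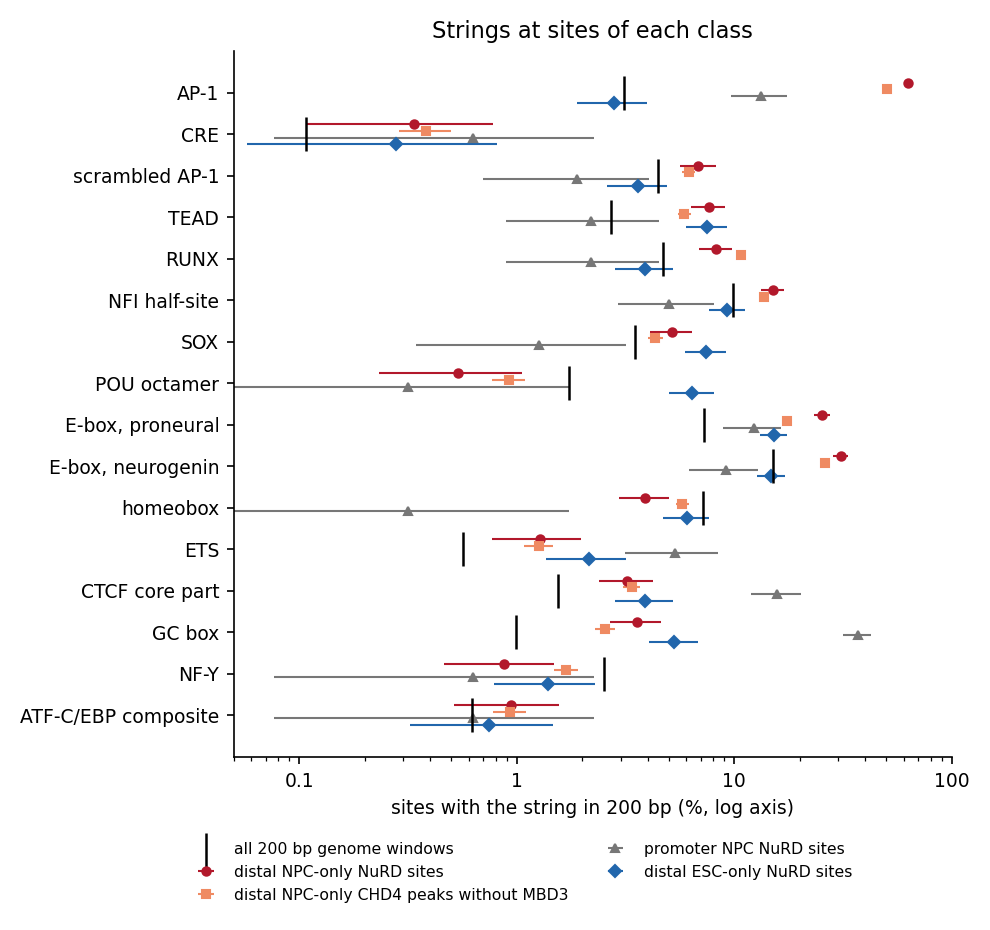
Share of sites with each of 16 strings in the central 200 bp (horizontal, percent, log axis) for the 4 site classes, as points with 95% Clopper-Pearson intervals, and for all genome windows as black ticks. AP-1 sets the members (62.9%) and the CHD4-only sites (50.2%) apart from ESC-only sites (2.79%), and the POU octamer is the reverse, at 0.536% of members and 6.41% of ESC-only sites.

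Elements gathered at the peak centre. Within 50 bp of the midpoint 44.6% of members held TGACTCA, and from 50 to 100 bp 27.3% did. Per 100 bp of sequence the share fell to 6.95% from 100 to 250 bp, 2.05% from 250 to 500 bp and 2.00% from 500 to 1000 bp. In windows of 200 bp placed 1 kb to either side of the members it was 4.16%. Where a site held the element, the nearest copy lay a median of 33 bp from the MBD3 midpoint and 39 bp from the CHD4 midpoint, and 72.0% of these sites had it within 50 bp of the MBD3 midpoint. ESC-only sites showed no such gathering, with 1.39% within 50 bp and 1.61% per 100 bp from 500 to 1000 bp.

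**Figure D3:**
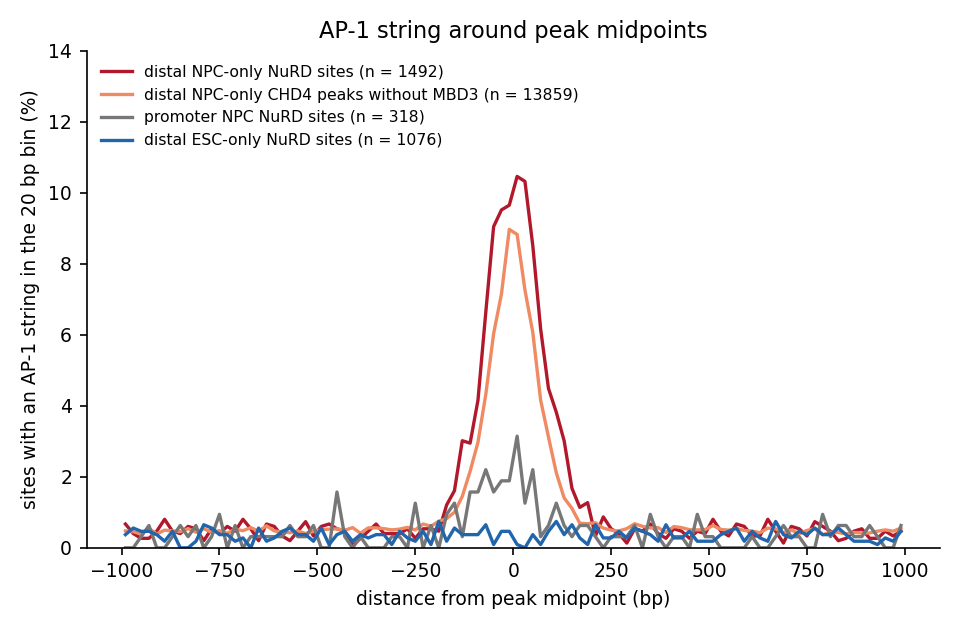
Share of sites with TGACTCA in each 20 bp bin (vertical, percent) by distance from the peak midpoint (horizontal, bp), 1 line for each site class. The members peak at 10.5% in the bin just right of the midpoint, the CHD4-only sites run below them, and ESC-only sites stay flat.

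Many members held more than 1 element. There were 716 sites with 1, 205 with 2 and 17 with 3, the highest number, so that 14.9% held at least 2 (13.1 to 16.8%). At CHD4-only sites 7.83% held at least 2, and at ESC-only sites 0 of 1076 did, an upper limit of 0.342%. Starts of neighbouring elements lay a median of 54 bp apart at the members (239 pairs, lower and upper quartile 33 and 91 bp). The bases beside the element were uneven too: T preceded TGACTCA in 6.64% of 1160 copies at members and in 19.5% of copies in the genome, and A followed it in 7.93% and 23.2%. At CHD4-only sites these shares were 6.28% and 8.55%.

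The share with the element was lowest among the weakest peaks and highest among the strongest. Over 5 groups of members ordered by MBD3 value it was 56.3% in the lowest (50.5 to 62.0%), 61.1%, 63.4% and 63.5% in the groups between, and 70.0% in the highest (64.5 to 75.2%). Ordered by CHD4 value it was 49.8% in the lowest group and 73.9% in the highest. In the groups between it did not rise, at 66.2%, 62.2% and 62.1%. Since members had higher CHD4 values than CHD4-only sites, both were also compared at like values. With all NPC CHD4 peaks divided by value into 4 groups of equal size, 42.2% of 102 members and 42.8% of 3614 CHD4-only sites in the lowest group held TGACTCA. In the next groups the shares were 53.9 and 48.2%, then 64.7 and 52.7%, and in the highest 66.6 and 58.7%. Within 4 groups by CHD4 value of both classes together the odds ratio was 1.40 (1.25 to 1.57, Mantel-Haenszel chi-square test, p = 7.14e-09), against 1.68 without groups. Windows were centred on MBD3 midpoints for members and on CHD4 midpoints for CHD4-only sites. With CHD4 midpoints for members too, the odds ratio without groups was 1.448 (1.297 to 1.617, adjusted exact p = 9.86e-11). Like values and like midpoints were not combined.

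**Figure D4:**
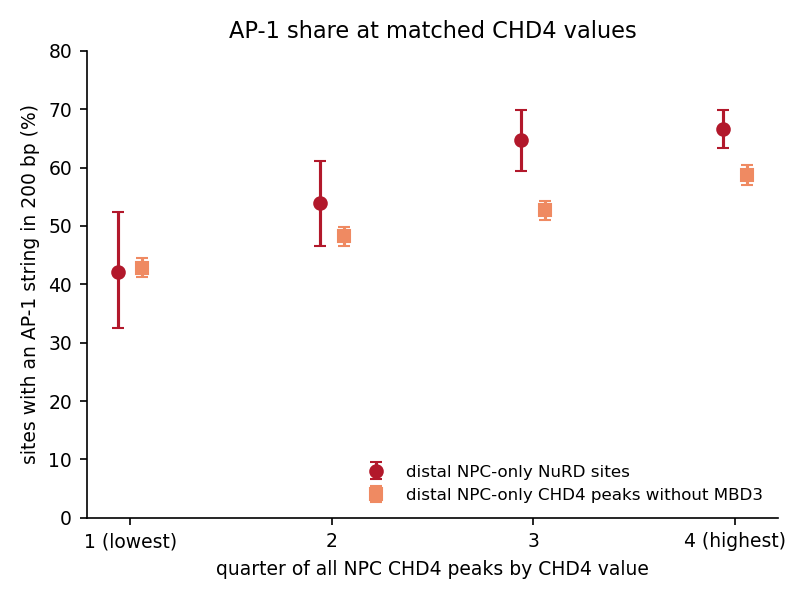
Share of sites with TGACTCA in 200 bp (vertical, percent, with 95% Clopper-Pearson intervals) in 4 groups by CHD4 value (horizontal, of all NPC CHD4 peaks, from lowest to highest). Members and CHD4-only sites start together at 42.2 and 42.8% and part in the upper groups, to 66.6 and 58.7%.

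TGACTCA was missing from 554 members. Some strings that differ from it by 1 base were common there: TGAATCA lay in 22.6% of the 554 (2.93% of genome windows), TGACTAA in 20.2% (2.53%), TTACTCA in 13.0% (2.48%), TGACACA in 11.7% (3.99%) and TGACTCG in 3.97% (0.390%). Others were not, such as GGACTCA in 2.35% (2.42%) and TAACTCA in 1.625% (3.175%). Relative to genome windows TGACTCG led with a ratio of 10.2, ahead of TGACTAA with 7.997, TGAATCA with 7.71 and TGACGCA with 5.41. At least 1 of these 4 was present in 239 of the 554, or 43.1%, and the group of 4 was picked after their values were seen. Members with and without the element had median MBD3 values of 8.76 and 8.41, CHD4 values of 14.1 and 12.7 (quartiles 10.6 and 19.6 against 8.76 and 17.2), MBD3 peak widths of 210 and 212 bp, and a GC content of 50.5 and 50.8%.

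E-boxes, the sites of basic helix-loop-helix factors, came next. CAGCTG, a palindromic form of the E-box, was found in 25.3% of members, 17.4% of CHD4-only sites, 15.1% of ESC-only sites and 7.23% of genome windows. The odds ratio was 1.61 against CHD4-only sites (1.42 to 1.83, adjusted exact p = 1.86e-12) and 1.90 against ESC-only sites (1.54 to 2.35, adjusted exact p = 1.42e-09). CAGATG, a form that neurogenins bind, lay in 30.9% of members, 26.1% of CHD4-only sites, 14.8% of ESC-only sites and 15.0% of genome windows, with odds ratios of 1.26 (1.12 to 1.42, adjusted exact p = 0.000286) and 2.58 (2.10 to 3.17, adjusted exact p = 9.59e-21). Against CHD4-only sites CAGATG was no longer called in a 100 bp window (odds ratio 1.07, adjusted exact p = 0.457). In the windows 1 kb to either side of the members CAGCTG fell to 9.85% and CAGATG to 15.9%. With AP-1 elements masked, CAGCTG stood in 22.8% of members with TGACTCA and 25.6% of those without. Masking can lower the first share alone, so these shares are not compared.

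The POU octamer ATGCAAAT, bound by OCT4 in ESCs, was found at 8 of 1492 members (0.536%), 69 of 1076 ESC-only sites (6.41%) and 1.73% of genome windows (odds ratio against ESC-only sites 0.0787, 0.0325 to 0.165, adjusted exact p = 9.17e-18). The Sirt4 site printed above was among these 8 members, with the octamer as its reverse complement. The SOX string CCATTGT lay in 5.16% of members and 7.43% of ESC-only sites (0.678, 0.484 to 0.949, adjusted exact p = 0.0332), a call lost within groups of like GC content (Mantel-Haenszel chi-square test, adjusted p = 0.102). It was also lost without ESC replicate 1 (adjusted exact p = 0.116) and without chromosome 3 (0.177). TEAD factors, the DNA-binding partners of the Hippo effector YAP, read ACATTCC. It was at 7.64% of members, more often than at CHD4-only sites (5.89%, odds ratio 1.32, 1.07 to 1.62, adjusted exact p = 0.0165), while at ESC-only sites it was at 7.53% (1.02, 0.748 to 1.39, adjusted exact p = 1).

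RUNX strings (TGTGGTT) were at 8.24% of members, above ESC-only sites (3.90%, odds ratio 2.21, adjusted exact p = 2.35e-05) and below CHD4-only sites (10.7%, 0.751, adjusted exact p = 0.00567). The homeobox string TAATTA was at 3.89% of members against 5.76% of CHD4-only sites (0.662, adjusted exact p = 0.00501) and 6.04% of ESC-only sites (0.629, adjusted exact p = 0.0270). The GC box GGGCGGG, read by SP factors, was at 3.55% of members, 2.54% of CHD4-only sites (1.41, adjusted exact p = 0.0440) and 37.1% of promoter sites (0.0626, adjusted exact p = 6.12e-56). At ESC-only sites it was at 5.30% (0.659, adjusted exact p = 0.0603). That difference passed the threshold within groups of like GC content (0.433, Mantel-Haenszel chi-square test, adjusted p = 8.39e-05) and without ESC replicate 1 (0.632, adjusted exact p = 0.00387). NF-Y strings (CCAATCA) were at 0.871% of members against 1.69% of CHD4-only sites (0.512, adjusted exact p = 0.0294). Within groups of like GC content (Mantel-Haenszel chi-square tests) the lower RUNX (adjusted p = 0.246), homeobox (0.841) and NF-Y (0.0837) shares against CHD4-only sites and the higher GC box share (0.438, odds ratio 0.861) were no longer called, nor was homeobox against ESC-only sites (0.156). TTGGCA, the half-site of NFI factors, was at 15.1% of members, 13.7% of CHD4-only sites (1.12, 0.960 to 1.30, adjusted exact p = 0.206) and 9.29% of ESC-only sites (1.73, 1.34 to 2.25, adjusted exact p = 3.72e-05). Differences from CHD4-only and ESC-only sites were not called for the ETS string CCGGAAG (1.27% of members), part of the CTCF core AGGGGGC (3.22%), the CRE TGACGTCA (0.335%) or the ATF and C/EBP composite TTGCATCA (0.938%), with adjusted p from 0.176 to 1. Some alternatives did call them. Within groups of like GC content the CTCF part was less frequent at members than at CHD4-only sites (0.647, Mantel-Haenszel chi-square test, adjusted p = 0.0190) and ESC-only sites (0.585, adjusted p = 0.0290). Without ESC replicate 1, members differed from ESC-only sites in ETS (0.328, adjusted exact p = 7.55e-07, against 0.591 with both replicates), the CTCF part (0.707, 0.0487) and CRE (5.18, 0.0379, against 1.203). Median GC content was 50.5% at members, 47% at CHD4-only sites, 48% at ESC-only sites and 71% at promoter sites.

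With no string given beforehand, the 10 strings of 6 bases that stood highest over genome windows at the members, among those in at least 5% of them, were led by parts of the AP-1 element. GACTCA was in 66.7% of members (9.03% of genome windows) and GAGTCA in 68.9% (9.95%), followed by AGTCAC in 41.2% (9.50%). Next came strings with a CpG, CCCACG in 8.58% of members, CCACGC in 7.64%, CCGCCC in 7.11%, CCGCAG in 6.70% and CGCAGC in 5.70%. AGTCAT, in 39.3%, and CAGCTG, in 25.3%, completed the 10. Among the 554 members without TGACTCA all of the first 10 held CpG, from GCCCGC (6.32% against 1.09%) to CCACGC (9.39% against 2.07%). These rankings were made on the members themselves and carry no test.

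CpG, the dinucleotide that carries most DNA methylation, was moderately frequent. At least 4 CpG in 200 bp were counted at 31.5% of members (29.1 to 33.9%), 23.0% of CHD4-only sites (odds ratio 1.54, 1.37 to 1.73, adjusted exact p = 1.62e-12), 22.9% of ESC-only sites (1.55, 1.29 to 1.87, adjusted exact p = 1.42e-06) and 88.4% of promoter sites (0.0607, 0.0411 to 0.0873, adjusted exact p = 2.85e-81), beside 12.0% of genome windows. The difference from ESC-only sites was not called when at least 6 CpG were required (1.28, adjusted exact p = 0.0721). Median GC content was 50.5% at members, 47% at CHD4-only sites, 48% at ESC-only sites, 71% at promoter sites and 41.5% in genome windows. CpG counts were not compared within groups of like GC content, so the part of GC content in these differences was not tested. At the 147 distal sites that were left out for an ESC peak, 75.5% had at least 4 CpG and 36.7% held TGACTCA.

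By position, 43.9% of members lay in introns, 1.94% in exons and 54.2% between genes. The intronic share was 44.2% at CHD4-only sites (odds ratio 0.988, 0.886 to 1.10, adjusted exact p = 0.848) and 37.3% at ESC-only sites (1.32, 1.12 to 1.55, adjusted exact p = 0.00149). Without ESC replicate 1 the difference from ESC-only sites was not called (odds ratio 1.09, adjusted exact p = 0.315). The median distance to a protein-coding TSS was 32.8 kb at members, and 9.05% lay within 5 kb, 41.3% from 10 to 50 kb and 19.8% beyond 100 kb. The AP-1 share lay between 57.0% (135 sites within 5 kb) and 67.3% (269 sites from 50 to 100 kb), and it was 62.0% in introns and 63.7% between genes.

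GFP-ZFP296 and SIN3A lists of ESCs, which the choice of sites had not used, rarely touched the members. By that choice, members and CHD4-only sites lack ESC MBD3 and CHD4 peaks, while ESC-only sites hold both. The shares below are therefore not independent of the choice. Of the 147 distal sites left out for an ESC peak, 7.48% overlapped a GFP-ZFP296 peak and 43.5% a SIN3A peak of the list without spike-in. GFP-ZFP296 peaks of ESCs overlapped 2 of 1492 members (0.134%, 0.0162 to 0.483%), 0.180% of CHD4-only sites (odds ratio 0.743, 0.0852 to 2.98, adjusted exact p = 1) and 46.0% of ESC-only sites. The labels and methods differ on the line that this list came from. Peaks of SIN3A, the scaffold of another HDAC1 and HDAC2 complex, overlapped 18 members (1.21%) in the list without spike-in and 13 (0.871%) in the list with it, against 0.664% and 0.483% of CHD4-only sites (odds ratios 1.83 and 1.81, adjusted exact p = 0.0706 and 0.0854). Without ESC replicate 1 (adjusted exact p = 0.0282 and 0.0282) or replicate 2 (6.09e-05 and 0.0312) both differences passed the threshold. Of the NPC promoter sites, which were kept with or without an ESC MBD3 or CHD4 peak, 59.1% overlapped the first SIN3A list. The series has no NPC sample of ZFP296 or SIN3A.

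Members were spread unevenly over the chromosomes. Chromosome 3 held 161 (10.8%), chromosome 6 held 142 and chromosome 19 held 84, a ratio of 2.29, 1.81 and 1.74 to the share of all coding genes that lie there. The ratio was 0.298 on chromosome 14, with 19 members, and 0 on the X. The whole NPC MBD3 list had 1 peak on the X and the CHD4 list 143. CHD4-only sites leaned the same way, with 8.58% on chromosome 3 and 2.37% on chromosome 14, while ESC-only sites had 5.11% and 3.996%. On the 19 autosomes the AP-1 share lay between 52.6% and 72.2%, and it was 61.5% on chromosome 3. Members clustered less than ESC-only sites, with another member within 50 kb for 25.7% against 36.0%. These counts were not tested.

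The nearest protein-coding gene lay within 100 kb of 1196 members (80.2%), and these named 989 of 22202 genes, or 4.45%. ESC-only sites named 3.33% of genes and CHD4-only sites 23.5%. Genes with a member had more sequence around them: the stretch to which a gene's TSS was the nearest, cut at 100 kb on either side, had a median of 107.9 kb against 46.6 kb for all genes, and its part in the counts below was not tested. Most of the 989 genes had 1 member, 163 had at least 2 and 8 had 4 or more.

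Scgb1a1, the gene of a secreted protein of airway club cells, was nearest to 6 members in 17.1 kb (chr19:9134681-9151743), but 5 of them lay in introns of Ahnak, which encodes a very large scaffold protein. Their MBD3 values ran from 4.50 to 16.2 and 2 held TGACTCA. Fbln2, an extracellular matrix gene, had 5 members upstream that together spanned 15.6 kb (chr6:91142400-91157966), with values of 6.86 to 19.1 and CHD4 values up to 30.6. Irf2bp2, a transcriptional corepressor gene, had 5 over 134.7 kb, of which 4 held the element. Trim8, a ubiquitin ligase gene, had 5 over 63.3 kb, and the 3 that held the element lay within Sufu, a gene for an inhibitor of Hedgehog signalling. S100a3, Ptges (a prostaglandin E synthase), Schip1 and Ccnl1 (a cyclin) had 4 each. Of these 8 genes, Ccnl1 also had an NPC promoter site with both subunits, and Schip1 an ESC-only site.

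Genes of cell adhesion and of Notch signalling lay near members more often than the 4.45% of all genes. The 6 lists of signalling, adhesion and AP-1 genes had shares of 15.4 to 37.9%. CHD4-only sites were near 50 to 75.9% of the genes of these lists, against 23.5% of all genes, and the median stretch around the genes of each was 50.3 to 108.9 kb. Of 29 focal adhesion and matrix genes, 11 (37.9%) were nearest to a member, against 1 with an ESC-only site and 22 with a CHD4-only site. Itga3, an integrin subunit, had a site between genes 16.6 kb upstream (chr11:94954535-94954817, MBD3 value 19.9, 1 AP-1 element). Tnc, the matrix protein tenascin C of neural stem cell niches, had a site 55.8 kb upstream (value 12.0, no element). Parva, an actin-binding adaptor at integrins, had a site 19.1 kb upstream, in an intron of Micalcl, with 1 element (9.92) and another in its intron without (9.38), and Itgb5 had a pair in its introns without the element (8.56 and 6.78).

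Of 15 Notch pathway genes, 5 (33.3%) had 9 members between them, and 0 had an ESC-only site. The receptor gene Notch2 had 3: a site 48.4 kb upstream (chr3:97768836-97769199) with an MBD3 value of 22.9, and a pair in its introns with 14.1 (chr3:97867467-97867715) and 8.998 (chr3:97831387-97831600). Notch1 had 3 as well, 1 in an intron (chr2:26350037-26350263, value 8.76) and others 9.19 and 15.4 kb upstream (7.38 and 5.97). TGACTCA was in 0 of these 6 windows, a count looked at after the values were known. Hes1, the repressor that Notch induces, had a site 35.6 kb upstream with 1 element (11.6), and Lfng, a glycosyltransferase acting on Notch, had a site 2.79 kb upstream without it (11.2).

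Hippo genes counted 5 of 17 (29.4%), with Axl, a receptor tyrosine kinase, carrying an intronic site of value 16.5 with 2 elements (chr7:26568816-26569118). Ankrd1 and Amotl2 followed with 9.21 and 9.11, and Tead1 with 6.2. TGF-beta and SMAD genes counted 4 of 18 (22.2%). Smad3, a signal transducer, had a pair of intronic sites of 14.3 (chr9:63554252-63554480, 1 element) and 11.5, and Tgfb3, Smad7 and Tgif1 had 1 each, of 8.998, 7.84 and 6.63. EGF, FGF and ERK genes counted 4 of 26 (15.4%), with Spred2 (10.1), Fgf2 (9.80, in its own intron), Dusp4 (6.78) and Fgfr1 (6.44).

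Of the 12 AP-1 family genes, 2 had a member. Fosb had a site 6.90 kb upstream with 1 element (value 9.66), and Jun had a pair, 26.1 kb downstream and 53.2 kb upstream of its TSS (6.19 and 4.90), without the element. Neural progenitor markers counted 1 of 19 (5.26%, Hes1), near the share of all genes, and Sox9, Pax6 and Nes had no member. CHD4-only sites were near 21.05% of these markers, and the median stretch around them was 124.8 kb. Astrocyte, oligodendrocyte and neuron genes counted 0 of 15, mesoderm and endoderm regulators 0 of 12 and NuRD subunits 0 of 15. In that order, CHD4-only sites were near 40%, 16.7% and 26.7% of the genes, and median stretches were 73.6, 67.45 and 50.9 kb. Pluripotency genes counted 0 of 16, with 6.25% near a CHD4-only site and a median stretch of 53.3 kb. Of these genes 13 (81.2%) had an ESC-only site, among them Pou5f1, Nanog, Klf4 and Esrrb. With 4.45% of all genes near a member, a count of 0 in lists this short is not read as a difference. The lists are short, and no test was run on them.

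**Figure D5:**
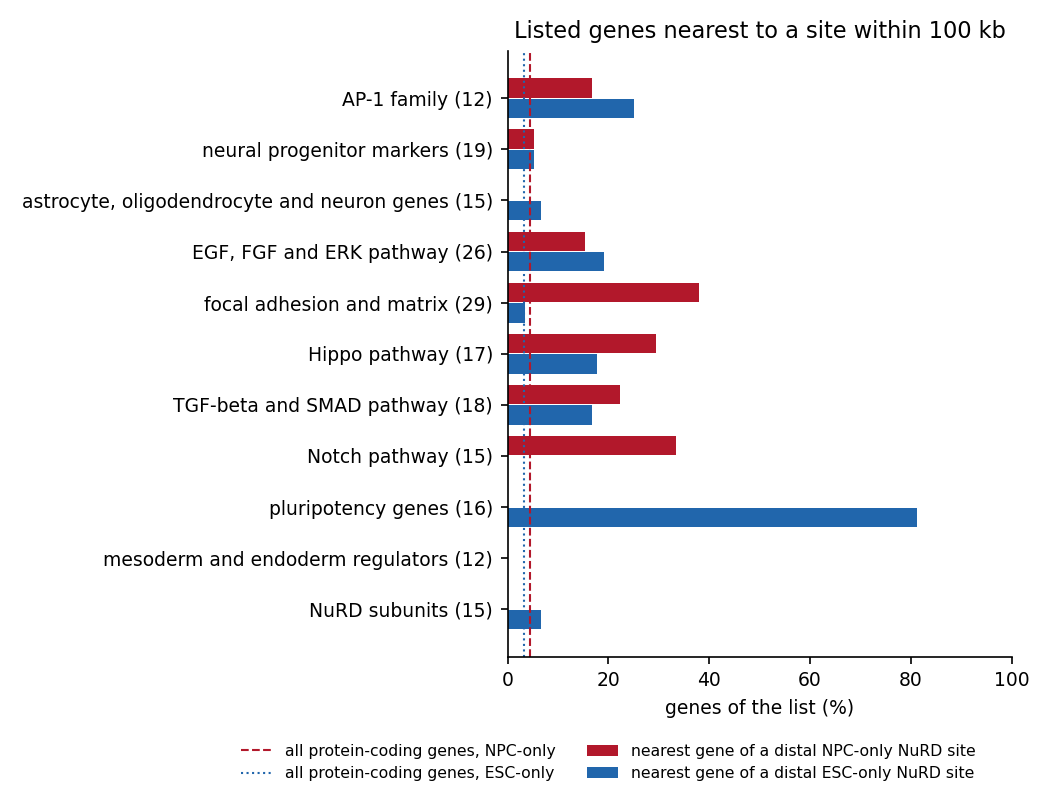
Share of the genes of each list (horizontal, percent, from 0) that were the nearest protein-coding gene within 100 kb of a distal NPC-only NuRD site (red) or an ESC-only site (blue), with the number of genes matched in brackets and lines at 4.45 and 3.33%, the shares of all protein-coding genes. Focal adhesion and matrix (37.9%) and Notch (33.3%) genes lead in red, and pluripotency genes (81.2%) in blue. Lists with no red bar are short, and at 4.45% of all genes a count of 0 there is not read as a difference.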

How the data were processed

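The deposited files are peak lists with 1 score per peak, on a −log10 scale. The authors mapped reads to mm9 with BWA, allowing 1 mismatch, kept unique reads, removed duplicates and called peaks with MACS2 2.0 for each sample against input, without pooling replicates. A threshold of 0.001 stands in the NPC peak names. The score was used to describe peaks, not to compare lists.

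Here, sites were defined by overlap of at least 1 bp and a distance over 1 kb from protein-coding TSSs of GENCODE vM1. Strings were counted on both strands in 200 bp around midpoints (MBD3 midpoints for NuRD sites, CHD4 midpoints for CHD4-only sites). Classes were compared by two-sided Fisher's exact tests with Benjamini-Hochberg adjustment within each family, called at 0.05. Alternatives changed the overlap, distal limit, TSSs, score, window, ESC replicates, chromosomes, CpG minimum and gene reach. Groups came from sample titles, and the other 27 samples were not analysed here.

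The sites, strings and gene lists were chosen with earlier results of these data known, including AP-1 elements at NPC-enriched sites. Named sites were the 8 with the highest MBD3 value, the 8 genes with most members and up to 4 genes per list, by number of members and then value. Results on 1 gene list are not reported here. Python 3.11.15, scipy 1.17.1, statsmodels 0.14.6 and pyfaidx 0.9.0.4 were used, and the class and string counting was tested on simulated data.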

Additional observations from a re-analysis of the deposited data

How the results depend on the processing

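The number of members stayed between 1331 (without chromosome 3) and 1573 (without ESC replicate 2), and the genes near them between 789 (reach of 50 kb) and 1042. The AP-1 difference kept its direction and its call in 39 of 39 alternatives, with odds ratios of 1.40 to 1.85 against CHD4-only sites, 28.9 to 67.8 against ESC-only sites and 4.73 to 16.2 against promoter sites. Of the CpG comparisons, 32 of 33 kept theirs, and at least 6 CpG gave 1.28 against ESC-only sites. None of the CpG alternatives grouped sites by GC content. The intronic odds ratio against CHD4-only sites, never called, was 1.003 with gene starts alone as TSSs, and against ESC-only sites it was 1.09 without replicate 1 and 1.26 without replicate 2. SIN3A overlap passed the threshold without replicate 1 or 2 (odds ratios 1.91 and 2.13 for the list without spike-in, 2.00 and 1.68 for that with it). ZFP296 overlap, never called, gave 1.07 beyond 5 kb, 1.03 without replicate 1 and 0.737 without replicate 2.

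Of 521 comparisons of other strings under alternatives, 455 kept direction and call, 24 lost a call, 16 gained one and 26 crossed an odds ratio of 1, none of them called there. A further 4 gave no odds ratio. Of the 16 calls gained, 6 were the lower GC box share against ESC-only sites (0.433 to 0.685), 3 concerned ETS, 3 the CTCF part, and 1 each CRE, the octamer, SOX and the scrambled string. ETS against ESC-only sites was 0.328 without replicate 1 and 0.399 beyond 5 kb. Within GC groups against CHD4-only sites the odds ratio became 0.861 for the GC box and 0.760 for ETS. ETS against CHD4-only sites was also 0.519 in 100 bp, 0.907 at values of at least 5, 0.824 beyond 5 kb, 0.947 with overlap of 50% of the shorter peak, 0.964 with gene starts and 0.981 without replicate 2, while in 500 bp it was 1.51 and called (adjusted exact p = 0.0131). The ATF and C/EBP composite gave 0.970, 0.905 and 0.881 against CHD4-only sites (100 bp, 500 bp, beyond 5 kb), 0.856 and 0.822 against ESC-only sites (500 bp, without replicate 2) and 0.796 against promoter sites (beyond 5 kb). CRE gave 1.33 and 1.04 against CHD4-only sites (100 bp, 500 bp) and 0.787, 0.953, 0.977 and 0.888 against ESC-only sites (values of at least 5, TSSs of all genes, midpoints within 500 bp, beyond 5 kb). The CTCF part gave 1.22 in 500 bp against CHD4-only and 1.002 in 100 bp against ESC-only sites, TEAD 0.883, 0.999 and 0.963 against ESC-only sites (500 bp, values of at least 5, the larger overlap), and the octamer 0.925 against promoter sites (TSSs of all genes).

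No paired analysis was possible because the results come from peak lists, with no test across replicates. The cause of these changes was not tested. Gene starts and GC groups, and alternatives beyond those planned for each result, were chosen after seeing the data. NPC libraries have no replicate, and read depth at the sites is unknown.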
